A study of Mus musculus with 2 samples.

Results

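The 6 transcription factor genes used as markers of epithelial-to-mesenchymal transition (EMT) and of embryonic mesenchyme were followed through single cells of the mouse aorta-gonads-mesonephros (AGM) region: Snai1, Snai2, Zeb1, Zeb2, Prrx1 and Prrx2. These 6 genes were chosen by symbol, out of 31053 genes in each count table, and all 6 had UMIs in both libraries. They were measured in every barcode with at least 2000 unique molecular identifiers (UMIs, each standing for 1 captured RNA molecule) of which under 10% were mitochondrial. The samples were E11 AGM cells of PDGFRB +/+ (WT) and PDGFRB -/- (KO) embryos, and a single library of each, loaded for the recovery of 7000 cells, was made (1 library per genotype). The mutant mice were kept as heterozygotes on a C57BL/6J background, so the KO is carried in the germline and is not limited to a cell type. The labels do not say how many embryos made up a library.

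SNAI1 and SNAI2 (Snail and Slug) are zinc finger proteins that bind E-box sequences and repress epithelial genes such as Cdh1, which encodes E-cadherin. ZEB1 and ZEB2 are larger zinc finger and homeodomain proteins that bind similar boxes and recruit the CtBP corepressors. PRRX1 and PRRX2 are paired-type homeodomain proteins of limb, craniofacial and body wall mesenchyme, and PRRX1 is also counted among the inducers of EMT. Mesenchymal cells surround the dorsal aorta of the AGM, in whose wall endothelial cells give rise to the first blood stem and progenitor cells.

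The WT library had 8253 usable barcodes with a median of 13321 UMIs, and the KO library had 8165 with a median of 12391. Pdgfrb, the deleted gene, was at 43.1 CPM (counts per 1000000 UMIs) in WT against 7.095 CPM in KO. Xist was at 793 CPM in WT against 0.415 CPM in KO, and 4 Y-linked genes summed to 0.0266 CPM and 163 CPM, so sex and genotype cannot be told apart. The libraries shared 20 barcode sequences. Barcodes were put into 15 classes by marker genes, 5 of mesenchyme and 10 of other lineages, none of which used the 6 factors. They are called "like" a cell type since only these markers stand behind the name, and the Tcf21-positive class rests on at least 2 UMIs of 1 gene, Tcf21. A further 1975 WT and 1960 KO barcodes, with median UMI counts of 4470 and 5039.5, passed no gate and were left unassigned, and 43 and 32 passed the gates of more than 1 lineage and were set apart. The splanchnic-like class had Lum, Dcn, Postn and Col1a1, markers of general mesenchyme, among its 10 leading genes in WT but not in KO, so no ratio between libraries is given for it alone. It was kept in the sums of all mesenchyme-like barcodes and in the weighting of classes. The epithelium-like class was led by Cldn7 and Epcam in WT and by Pax2, Calb1 and Krt14 in KO. The deleted part of Pdgfrb is not given in the sources used here, so a 3′ tag need not report its loss. Because each genotype is 1 library, no difference could be tested against the variation between embryos. The intervals given are exact 95% intervals for counting error only.

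Gene positions are given in GRCm38. Snai1 spans chr2:167538195-167542814 on the plus strand and Snai2 spans chr16:14705852-14709385 on the plus strand. Prrx1 spans chr1:163245119-163313710 on the minus strand and Prrx2 spans chr2:30834972-30881251 on the plus strand. Zeb1 is also on the plus strand. Zeb2 spans chr2:44983632-45117395 on the minus strand and is overlapped by the antisense gene Zeb2os, and Prrx1 is overlapped by Gm26523 and Gm20471, and Zeb1 by Gm10125. Counting by strand is not given in the sources used here, so reads of these overlapping genes may not be fully told apart.

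Snail and Zeb proteins bind the E-box CACCTG, which reads CAGGTG on the other strand. In the RefSeq table of promoters (GRCm38.p6, 250 bases before to 50 after a transcription start), 20.2% of 32851 promoters held this box on either strand. Of the 10 epithelial genes listed for the comparisons below, 7 had an entry and 7 of these held the box in at least 1 promoter, against 22.6% of the 27025 genes with an entry. The list holds genes that Snail and Zeb factors are known to repress or that mark epithelium. The share with a box is therefore not independent of how the genes were chosen. Cdh1, Cdh3 and Krt19 had no entry. Among the factors, Snai1 held 1 box, Zeb2, Prrx1 and Prrx2 held none, Snai2 had no entry, and the promoter of Zeb1 was not analysed here. The promoters of 4 genes are shown with each box in capitals, that of Snai1 as the one with a box among the 4 factors examined, those of the keratin genes Krt8 and Krt18 because their levels in the libraries are compared further on, and that of Crb3, a gene of apical polarity, as the one with the most boxes of those examined.
Snai1 (chr2:167537945-167538244, plus strand): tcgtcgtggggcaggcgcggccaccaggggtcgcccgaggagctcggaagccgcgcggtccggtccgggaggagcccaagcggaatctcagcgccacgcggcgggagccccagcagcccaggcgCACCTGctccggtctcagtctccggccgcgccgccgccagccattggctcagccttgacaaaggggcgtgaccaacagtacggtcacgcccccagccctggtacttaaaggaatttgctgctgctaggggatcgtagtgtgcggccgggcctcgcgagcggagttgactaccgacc
Krt8 (chr15:102004293-102004592, minus strand): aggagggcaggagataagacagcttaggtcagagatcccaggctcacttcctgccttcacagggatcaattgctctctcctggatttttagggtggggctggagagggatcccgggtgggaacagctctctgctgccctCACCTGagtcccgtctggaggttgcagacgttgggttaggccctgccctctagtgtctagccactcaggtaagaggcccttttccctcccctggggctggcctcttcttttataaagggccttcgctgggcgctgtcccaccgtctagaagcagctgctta
Krt18 (chr15:102027966-102028265, plus strand): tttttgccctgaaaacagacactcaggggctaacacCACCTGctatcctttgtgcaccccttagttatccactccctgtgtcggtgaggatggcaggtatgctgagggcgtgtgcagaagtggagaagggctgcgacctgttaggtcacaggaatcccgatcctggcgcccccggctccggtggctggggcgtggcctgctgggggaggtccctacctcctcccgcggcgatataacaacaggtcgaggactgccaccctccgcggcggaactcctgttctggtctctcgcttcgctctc
Crb3 (chr17:57061951-57062250, plus strand): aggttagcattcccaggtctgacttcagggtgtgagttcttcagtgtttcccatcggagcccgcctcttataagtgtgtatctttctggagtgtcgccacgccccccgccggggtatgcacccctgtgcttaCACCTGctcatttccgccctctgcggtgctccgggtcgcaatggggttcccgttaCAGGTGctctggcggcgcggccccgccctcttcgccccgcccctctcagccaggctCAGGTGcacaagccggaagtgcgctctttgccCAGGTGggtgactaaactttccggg
The box of Snai1 began 126 bases before the start, that of Krt8 began 111 and that of Krt18 began 214 bases before it. The boxes of Crb3 began 118, 63 and 7 bases before the start and 25 bases after it. A box is a match of letters and was not examined as a binding site.

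The Prrx pair was followed first, since both of its genes had their highest levels in mesenchyme. Prrx1 reached 262 CPM (257 to 268) in other mesenchyme-like barcodes of the WT library, the class defined by collagen genes, Lum, Dcn and Pdgfra with no more specific gate. The KO library had 327 CPM (321 to 332) in the same class, and levels are compared here between classes within a gene, since capture at the 3′ end differs from gene to gene. Smooth muscle-like barcodes came next with 202 CPM (195 to 210) in WT against 234 CPM (225 to 243) in KO, and Tcf21-positive barcodes followed with 150 and 168 CPM. The 3 highest classes were the same in both libraries, in the same order, and no neighbours among them had overlapping intervals by CPM. In WT, however, the smooth muscle-like class was highest with 1 more marker per gate and after thinning of each barcode to 2000 UMIs, with a Prrx1 UMI in 38.8% (34.1 to 43.6) of its barcodes against 30.7% (28.7 to 32.8) of other mesenchyme-like ones. Prrx1 was lower in sclerotome-like barcodes, the precursors of the vertebrae, at 112 CPM in WT against 134 CPM in KO. It was also at 102 and 132 CPM in muscle progenitor-like barcodes. At the lower end, coelomic epithelium-like barcodes had 22.9 CPM in WT against 33.8 CPM in KO. Globin genes held 553874 and 612706 CPM of erythroid-like barcodes, which lowers the CPM of every other gene there, and Prrx1 was at 51.9 and 153 CPM of their remaining UMIs.

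Prrx2 was also highest in other mesenchyme-like barcodes, at 114 CPM (111 to 118) in WT against 104 CPM (101 to 107) in KO. In WT the splanchnic-like class followed with 87.1 CPM (80.5 to 94.1), and in KO the Tcf21-positive class followed with 67.3 CPM (62.7 to 72.2). Outside mesenchyme, the highest Prrx2 levels were 38.9 CPM in epithelium-like barcodes of WT and 30.8 CPM in muscle progenitor-like barcodes of KO. No lineage class had a level of Prrx1 or Prrx2 above that of all mesenchyme-like barcodes together. Prrx1 gave 68.5% (67.9 to 69.0) of the UMIs of the pair in WT mesenchyme-like barcodes and 74.8% (74.3 to 75.3) in KO. In WT coelomic epithelium-like barcodes it gave 43.8% (36.7 to 51.1), the lowest share of the 15 WT classes.

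The Snail genes had their highest levels in different classes. Snai1 was highest in sclerotome-like barcodes of WT, at 48.3 CPM (44.9 to 51.9), and the KO library had 44.0 CPM (41.5 to 46.7) there. Myoblast-like barcodes, the differentiating muscle cells, had 41.5 CPM (35.6 to 48.0) in WT against 46.2 CPM (41.8 to 51.0) in KO. These levels overlapped those of sclerotome in each library, so the order of the leading classes, which was reversed in KO, was not resolved. In KO, but not in WT, the myoblast-like level of Snai1 was above that of all mesenchyme-like barcodes, which was 35.1 CPM in KO. Smooth muscle-like barcodes had less Snai1, at 27.3 CPM in WT against 25.9 CPM in KO. The other white blood-like barcodes had 1 UMI of Snai1 in WT and 2 in KO.

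Snai2 showed a different order. It was highest in smooth muscle-like barcodes of WT, at 117 CPM (112 to 123), and in KO the smooth muscle-like and Tcf21-positive classes had 99.5 CPM (93.7 to 106) and 102 CPM (96.0 to 108). Coelomic epithelium-like barcodes had 49.0 CPM of Snai2 in WT against 83.0 CPM in KO, where their interval overlapped that of smooth muscle-like barcodes. Sclerotome-like barcodes had 56.7 and 57.9 CPM of Snai2. Myoblast-like barcodes had 34.5 CPM in WT against 21.2 CPM in KO. Snai1 accordingly gave 18.9% (17.2 to 20.6) of the Snail UMIs in smooth muscle-like barcodes of WT, 46.0% (43.6 to 48.5) in sclerotome-like and 54.6% (49.0 to 60.1) in myoblast-like barcodes. In KO the same shares were 20.7% (18.6 to 22.9), 43.2% (41.3 to 45.2) and 68.6% (64.6 to 72.4), so both libraries kept the order of the 3 classes. Snai3, the remaining Snail gene, had 0 UMIs in WT mesenchyme-like barcodes and 1 in KO.

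The Zeb genes went against a label of mesenchymal factors, because the highest level of each was found outside mesenchyme in both libraries. For Snai1 this was so in KO only, where the order was not resolved. Zeb1 was highest in myoblast-like barcodes, at 109.6 CPM (99.99 to 120) in WT against 125 CPM (118 to 133) in KO. Endothelial-like barcodes had 90.1 CPM (80.55 to 100.5) in WT against 114.5 CPM (104 to 125) in KO, and since these intervals overlapped those of myoblast-like barcodes in both libraries the order was not resolved. The splanchnic-like class of WT, at 83.5 CPM (77.0 to 90.3), overlapped the endothelial-like level. The myoblast-like and endothelial-like classes were above all mesenchyme-like barcodes, which had 55.3 CPM (53.8 to 56.9) in WT against 55.7 CPM (54.2 to 57.2) in KO. Macrophage-like barcodes had 13.2 CPM (9.71 to 17.5) of Zeb1 in WT against 13.3 CPM (9.23 to 18.6) in KO, at the low end of the classes.

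Zeb2 was highest in macrophage-like barcodes of WT, at 357 CPM (338 to 377), and in Schwann and neural crest-like barcodes of KO, at 386 CPM (370 to 403). The WT level in Schwann and neural crest-like barcodes was 279.8 CPM (267 to 293), and the KO level in macrophage-like barcodes was 349 CPM (326 to 372), so the order of these classes was not resolved in KO. It was reversed in WT after thinning to 2000 UMIs. In Schwann and neural crest-like barcodes the log2 ratio of KO to WT was 0.46 (0.37 to 0.56). Further from 0 were the Zeb2 ratios of coelomic epithelium-like barcodes, at 0.97 (0.71 to 1.24), and neuron-like ones, at -0.84 (-1.23 to -0.47). Epithelium-like barcodes had -0.67 (-1.06 to -0.29). The share of all genes with such ratios was not counted in these classes. Zeb2 is known to be needed for neural crest development, and mutations of the human gene cause Mowat-Wilson syndrome. Within mesenchyme, smooth muscle-like barcodes had 284 CPM (275 to 293) in WT against 268 CPM (258 to 278) in KO, the WT level overlapping that of Schwann and neural crest-like barcodes, and Tcf21-positive barcodes 189.6 and 249.8 CPM. Sclerotome-like barcodes had 63.0 and 64.0 CPM. Zeb2os, the antisense gene, was highest in the macrophage-like class as well, at 64.8 CPM (56.8 to 73.6) in WT against 65.8 CPM (56.2 to 76.6) in KO, against 5.87 and 5.10 CPM in all mesenchyme-like barcodes.

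The Zeb genes were found in different proportions. Zeb1 gave 58.9% (54.7 to 63.1) of their UMIs in endothelial-like barcodes of WT and 64.9% (61.4 to 68.4) in KO. In macrophage-like barcodes it gave 3.56% (2.64 to 4.69) and 3.68% (2.56 to 5.10). All mesenchyme-like barcodes lay between these classes, with 28.6% (27.9 to 29.3) in WT and 30.5% (29.8 to 31.2) in KO.

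**Figure D1:**
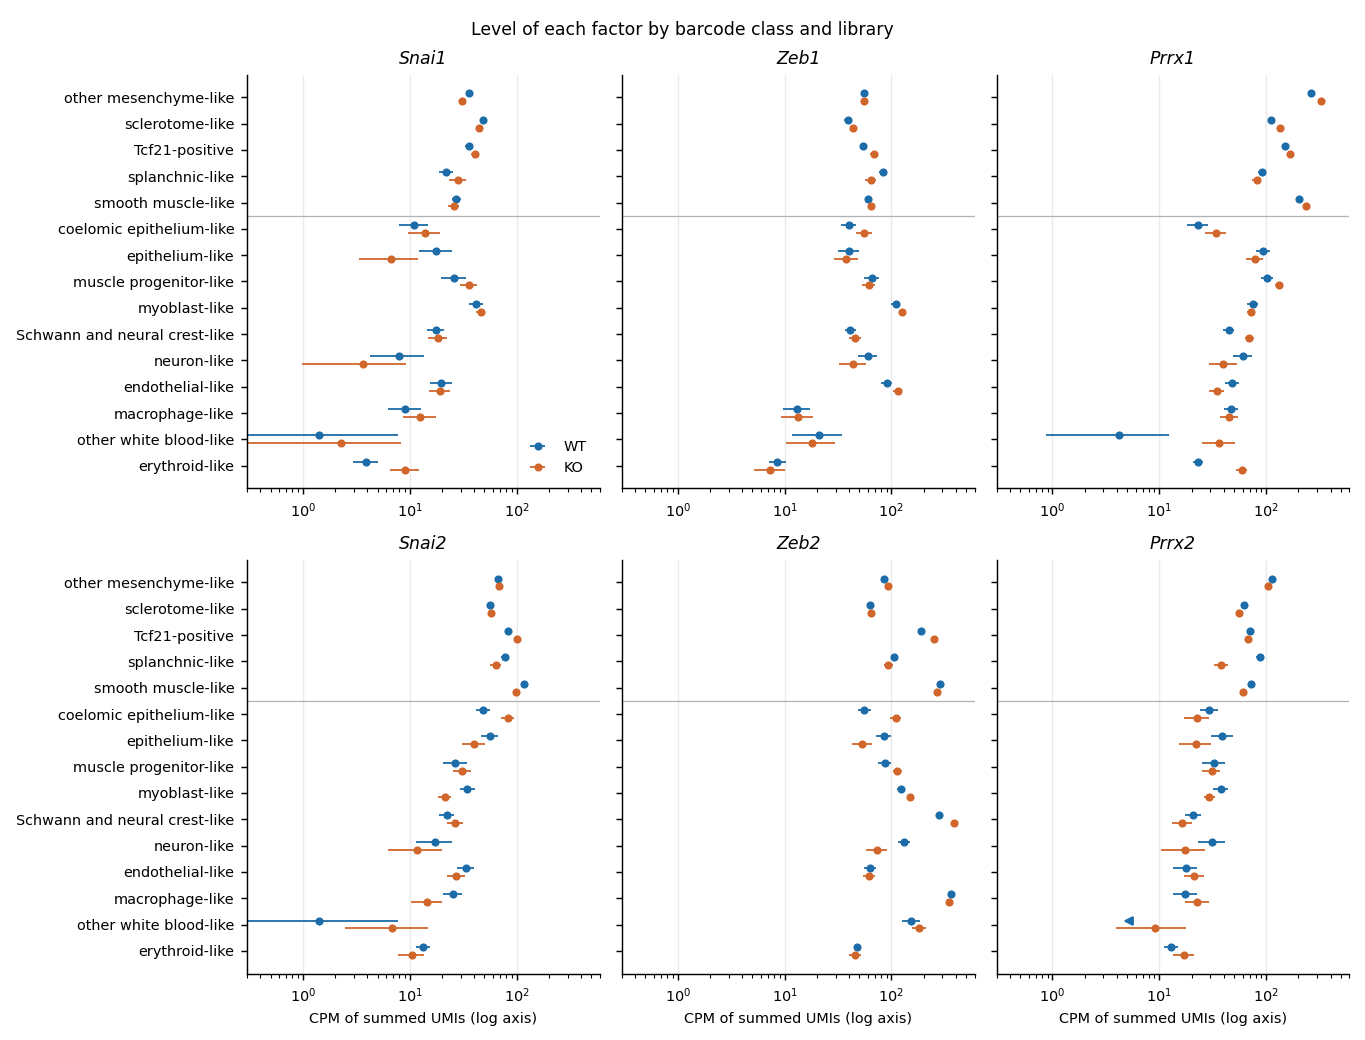
CPM of the summed UMIs of each factor (horizontal log axis) in the 15 barcode classes, with WT in blue, KO in orange and exact 95% Poisson intervals as lines. The 5 mesenchyme-like classes stand above the grey line, and the triangle marks the upper bound of a class with 0 UMIs. Prrx1 and Prrx2 peak in other mesenchyme-like barcodes (262 and 114 CPM in WT), while the highest WT values are in myoblast-like barcodes for Zeb1 (109.6 CPM, not separated from endothelial-like ones) and in macrophage-like barcodes for Zeb2 (357 CPM).

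Neighbouring classes were often not separated. Of the 14 steps in the order of a factor's classes, between 8 (Prrx1 in WT) and 14 (Snai1 in KO) joined classes whose intervals overlapped. To set the levels against free RNA, each barcode was thinned to 2000 UMIs and the share of barcodes with a UMI was compared with that in erythroid-like barcodes. Those barcodes had median UMI counts of 16824 and 19936.5 before thinning, against 14156 and 13323 for mesenchyme, and globin UMIs were among those 2000, which lowers the shares of erythroid-like barcodes. For Prrx1 this share was 30.7% (28.7 to 32.8) in other mesenchyme-like barcodes of WT and 36.8% (34.8 to 38.8) of KO, against 1.49% (0.744 to 2.64) and 2.27% (0.742 to 5.22) in erythroid-like barcodes. Without thinning, these shares were 66.0% and 72.95% against 11.35% and 11.36%.

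The erythroid-like class held 740 barcodes in WT but 220 in KO. Its KO intervals were therefore wider, and the numbers of classes above it are not comparable between libraries. Such numbers were not counted for other genes, so whether those of the factors are usual is not known. Prrx1 was above erythroid-like barcodes by the share at 2000 UMIs in 9 of 14 classes in WT and 6 in KO, and Prrx2 in 8 and 4. Snai1 was above them in 6 classes in each library, Snai2 in 9 and 6, and Zeb1 in 10 and 10. The Snai1 shares of endothelial-like barcodes, 2.94% (0.611 to 8.36) in WT and 4.35% (1.20 to 10.8) in KO, were thus not above the 0.676% (0.220 to 1.57) and 0.455% (0.0115 to 2.51) of erythroid-like barcodes. Prrx1 in Schwann and neural crest-like barcodes was at 2.50% (0.817 to 5.74) and 7.91% (4.39 to 12.9), which also overlapped that background. Zeb2 was above them in 9 and 7 classes, but its share in erythroid-like barcodes was itself higher. There 44.3% of WT and 50% of KO barcodes had a UMI of it before thinning and 6.62% and 9.55% after. In WT, erythroid-like barcodes and free RNA had 48.1 and 93 CPM of Zeb2, and 23.1 and 118.4 CPM of Prrx1. The KO values were 46.05 and 111.5 CPM, and 59.35 and 158.6 CPM. Whether the Zeb2 UMIs of erythroid-like barcodes were free RNA was not tested, so its counts of classes may be too low. Zeb2 in macrophage-like barcodes was nevertheless at 43.2% (35.5 to 51.2) and 43.5% (35.1 to 52.2) at 2000 UMIs.

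The libraries were next compared within mesenchyme, to see whether the factors differed in the KO. There were 4620 mesenchyme-like barcodes in WT and 4897 in KO, with 91300006 and 90798847 UMIs. None of the 6 factors was past a log2 ratio of 0.5 in either direction, where 11.8% of the 13623 genes with at least 100 UMIs were. Prrx1 was higher in KO, at 229.9 CPM against 188 CPM, a log2 ratio of 0.29 (0.26 to 0.32). Prrx2 was lower, at 77.6 CPM against 86.7 CPM, a log2 ratio of -0.16 (-0.21 to -0.11). Zeb2 had 127 CPM against 138 CPM, a log2 ratio of -0.12 (-0.16 to -0.09), and Snai2 had 73.5 CPM against 77.9 CPM, a log2 ratio of -0.08 (-0.13 to -0.04). Snai2 and Zeb2 are also in the list of mesenchymal genes that the study compared in these libraries, so their direction is not independent evidence for it. Snai1 had 35.1 CPM against 35.5 CPM, a log2 ratio of -0.01 (-0.09 to 0.06), and Zeb1 had 55.7 CPM against 55.3 CPM, a log2 ratio of 0.01 (-0.05 to 0.07). The median log2 ratio of the 6 was -0.05 and that of all genes was 0.02.

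The classes were mixed differently in the 2 libraries. Sclerotome-like barcodes held 17.0% of the mesenchymal UMIs in WT and 27.2% in KO, while Tcf21-positive barcodes held 22.6% and 12.9%, and smooth muscle-like barcodes 15.7% and 12.15%. Zeb2 was low in the first and high in the others. With the KO classes weighted to the WT mix, the Zeb2 log2 ratio was 0.13 and that of Snai2 was 0.02, so that both turned direction, whereas Prrx1 was at 0.25 and Prrx2 at -0.20. This weighting included the splanchnic-like class, which had 87.1 CPM of Prrx2 in WT and 37.8 CPM in KO. Weighted ratios without that class were not computed, and the pooled Prrx2 ratio without it was -0.12. In WT, 397 mesenchyme-like barcodes held UMIs of both Pdgfrb and Cspg4 (encoding NG2) and 1860 of Pdgfrb only, against 145 and 491 in KO. Leaving all of these out of both libraries thus removed more WT than KO barcodes. Prrx2 then turned direction too, to 0.05, with Snai2 at 0.24 and Zeb2 at 0.29, and Prrx1 was past 0.5, at 0.58. With such barcodes left out of KO alone, as the study did, Prrx2 was at -0.27, Snai2 at -0.16, Zeb2 at -0.34 and Prrx1 at 0.15. In these sums, fewer cells of a class and less RNA per cell cannot be told apart.

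Within single classes the Prrx genes differed in opposite directions. The Prrx1 log2 ratio was 0.32 (0.28 to 0.36) in other mesenchyme-like, 0.26 (0.17 to 0.34) in sclerotome-like, 0.16 (0.08 to 0.25) in Tcf21-positive and 0.21 (0.13 to 0.29) in smooth muscle-like barcodes. The Prrx2 log2 ratio was -0.13 (-0.20 to -0.07), -0.15 (-0.27 to -0.03), -0.07 (-0.20 to 0.06) and -0.24 (-0.38 to -0.10) in the same classes. The Prrx1 intervals excluded 0 in 4 of 4 classes and the Prrx2 intervals in 3 of 4. These intervals hold counting error only, and the share of all genes whose interval excluded 0 was not counted. The free RNA profile, summed over barcodes of no more than 100 UMIs, differed in the same way, with 118 CPM of Prrx1 in WT against 159 CPM in KO and with 77.7 and 55.6 CPM of Prrx2. After subtraction of this profile at 5% of each barcode's UMIs, a fixed setting that was not estimated from the data, the pooled ratios were 0.29 and -0.15. The free RNA of KO held 105 CPM of Xist against 0.415 CPM in the KO barcodes used, and the source of this RNA was not tested. The share of Prrx1-positive barcodes in other mesenchyme at 2000 UMIs was 30.7% in WT and 36.8% in KO, with intervals that did not overlap, but in smooth muscle it was 38.8% (34.1 to 43.6) in WT and 34.4% (29.1 to 39.98) in KO.

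The 4 Snail and Zeb genes were all higher in KO in Tcf21-positive barcodes. Zeb2 had a log2 ratio of 0.40 (0.33 to 0.47) there, Zeb1 of 0.31 (0.18 to 0.45), Snai2 of 0.29 (0.18 to 0.39) and Snai1 of 0.21 (0.04 to 0.37). Of all 10971 genes measured in this class, 43.5% were lower in KO. The Zeb2 share at 2000 UMIs was 26.8% (24.1 to 29.6) in WT and 33.2% (29.6 to 37.0) in KO in this class, with intervals that just touched. In smooth muscle-like barcodes Snai2 was lower in KO, with a log2 ratio of -0.24 (-0.35 to -0.13), and Zeb2 had -0.08 (-0.15 to -0.01). No factor was past 0.5 in any of the 4 classes, where the share of all genes past it was 9.8% in other mesenchyme-like, 9.16% in sclerotome-like, 7.88% in Tcf21-positive and 9.81% in smooth muscle-like barcodes. Barx1 was among the 10 leading genes of the Tcf21-positive class in WT but not in KO.

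**Figure D2:**
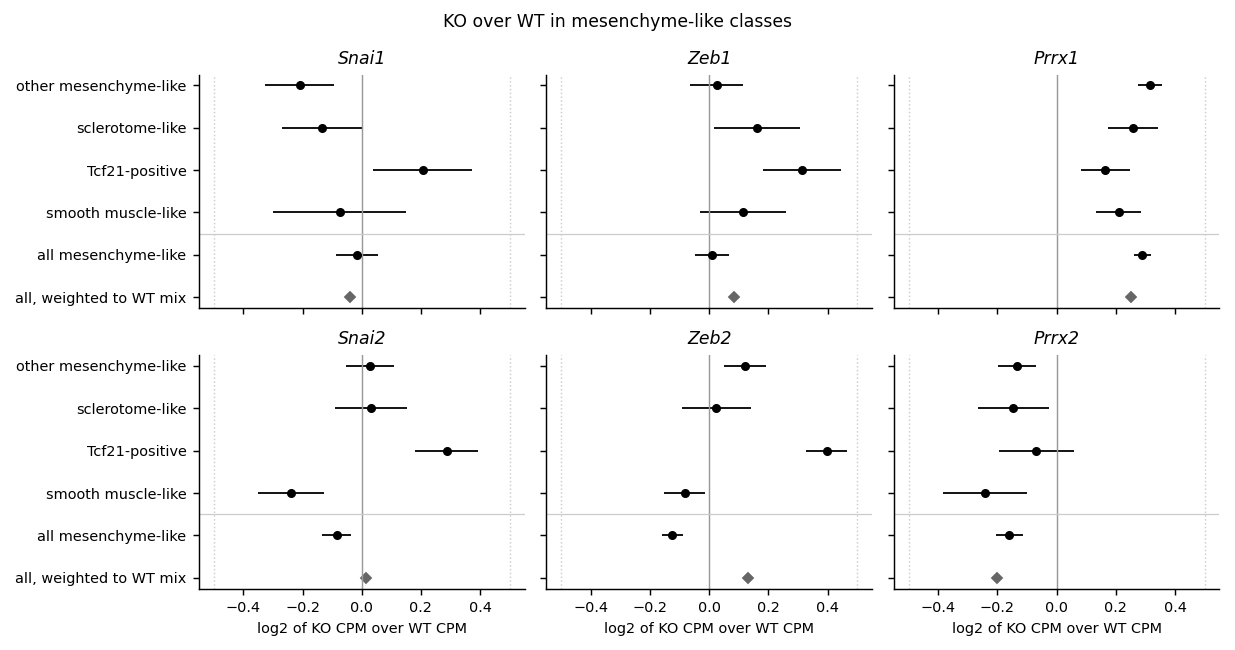
The log2 ratio of KO to WT CPM (horizontal axis) of each factor in 4 mesenchyme-like classes and in all mesenchyme-like barcodes, with exact 95% intervals for counting error as lines. The grey diamond is the ratio with the KO classes weighted to the WT mix, and dotted lines stand at 0.5 in each direction. Prrx1 lies right of 0 in every class and Prrx2 left of it, though the Prrx2 interval of Tcf21-positive barcodes reaches 0.06, and the Zeb2 diamond (0.13) lies on the other side of 0 from the pooled value (-0.12).

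The study divides perivascular cells by PDGFRβ and NG2, the product of Cspg4, and the same division by UMIs was applied to the WT mesenchyme-like barcodes. It gave 397 double-positive (DP), 1860 PDGFRβ-S, 219 NG2-S and 2144 double-negative (DN) barcodes, with median UMI counts of 24425, 17553.5, 14832 and 11930.5, so that the gates also sorted barcodes by depth. Zeb2 was at 221 CPM (213 to 229) in DP barcodes and 150 CPM (147 to 154) in PDGFRβ-S barcodes, above the NG2-S level of 80.2 CPM (71.5 to 89.7) and the DN level of 90.5 CPM (87.2 to 94.0). Snai2 followed the same outline, with 102 CPM (97.1 to 108) in DP barcodes against 59.8 CPM (57.0 to 62.6) in DN barcodes, and Zeb1 had 69.5 CPM (65.1 to 74.2) and 43.4 CPM (41.1 to 45.8). At 2000 UMIs per barcode, the Zeb2 shares of DP and PDGFRβ-S barcodes stayed apart, at 32.5% (27.9 to 37.3) and 22.1% (20.2 to 24.1). Those of Snai2 overlapped, at 16.9% (13.3 to 20.9) and 14.8% (13.2 to 16.5), as did those of Zeb1, at 12.6% (9.49 to 16.3) and 10.9% (9.48 to 12.4). Prrx1 was instead highest in PDGFRβ-S barcodes, at 227 CPM (223 to 231), above the DP level of 183 CPM (176 to 190) and the DN level of 144 CPM (139.6 to 148). Thinned to 2000 UMIs this order was not kept, with a Prrx1 UMI in 31.0% (26.5 to 35.8) of DP and 29.25% (27.2 to 31.4) of PDGFRβ-S barcodes. Prrx2 was also highest in PDGFRβ-S barcodes by CPM, at 104 CPM (101 to 107), but its thinned shares of 18.2% (16.4 to 20) and 14.6% (11.3 to 18.5) in DP barcodes overlapped. Snai1 alone of the factors was higher in NG2-S barcodes, at 45.7 CPM (39.2 to 53.0), than in DP barcodes, at 28.2 CPM (25.5 to 31.2), and its thinned shares of 7.31% (4.23 to 11.6) and 6.55% (4.32 to 9.45) overlapped as well.

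Of the DP barcodes, 186 were smooth muscle-like, a class for which Cspg4 was itself 1 of the markers, so the division was repeated within other mesenchyme-like barcodes, where 86 were DP and 959 DN. Zeb2 was then at 113.5 CPM (100 to 128) in DP barcodes against 72.05 CPM (67.4 to 76.9) in DN barcodes, and Zeb1 at 70.95 CPM (60.4 to 82.8) and 47.6 CPM (43.9 to 51.6). Snai2 had 78.0 CPM (66.9 to 90.5) and 60.5 CPM (56.3 to 65.0). Thinned to 2000 UMIs, the DP and DN shares of all 3 genes overlapped in this class, those of Zeb2 being 20.9% (12.9 to 31.05) and 13.97% (11.8 to 16.3). Within smooth muscle-like barcodes the DP and PDGFRβ-S gates were not separated, with 289 CPM (276 to 302) and 298 CPM (285 to 312.5) of Zeb2 and 117 CPM (109 to 126) and 128 CPM (119 to 138) of Snai2. Prrx1 had 303 CPM (295 to 312) in PDGFRβ-S barcodes, above the 223 CPM (204 to 243) of DP and the 222 CPM (213.5 to 230.0) of DN barcodes, though the thinned PDGFRβ-S share of 35.2% (32.1 to 38.4) overlapped that of DP barcodes, 27.9% (18.8 to 38.6). In KO, 145 mesenchyme-like barcodes still fell in the DP gate and 491 in the PDGFRβ-S gate, and they were not compared with the WT gates.

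**Figure D3:**
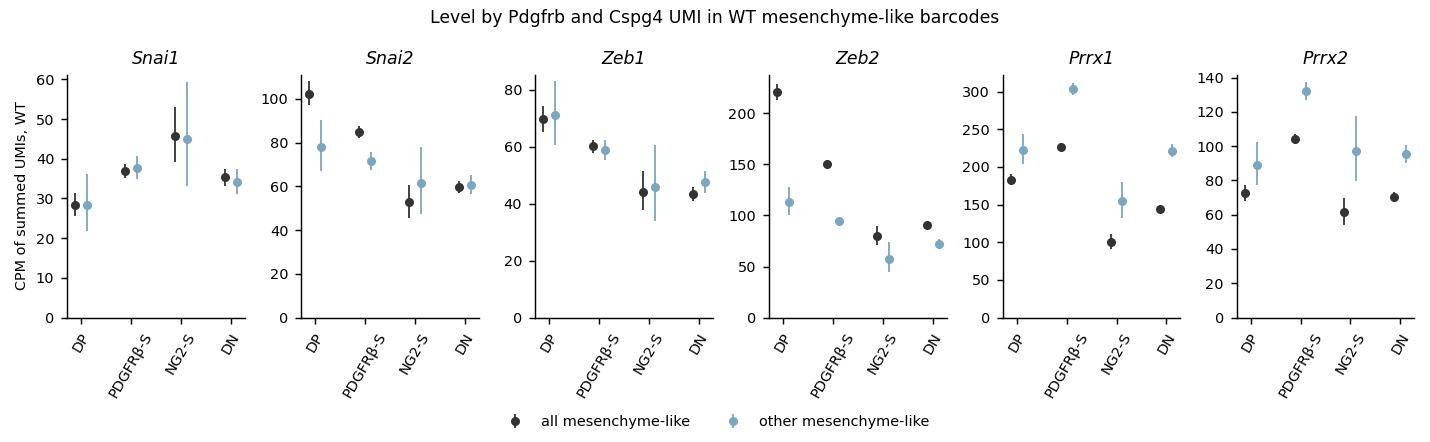
CPM of each factor (vertical axis, from 0) in WT mesenchyme-like barcodes divided by whether they hold a UMI of Pdgfrb and of Cspg4, for all mesenchyme-like barcodes (dark) and the other mesenchyme-like class (light), with exact 95% Poisson intervals. Over all mesenchyme, Zeb2 and Snai2 have their highest CPM in DP barcodes (221 and 102 CPM), and Prrx1 and Prrx2 in PDGFRβ-S barcodes (227 and 104 CPM). At equal depth the DP and PDGFRβ-S shares of Snai2, Prrx1 and Prrx2 overlapped, and Prrx1 did not keep its order.

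It was then examined whether the factors were found in the same barcodes. At 2000 UMIs, 39.9% of WT and 42.7% of KO mesenchyme-like barcodes had no UMI of any factor, 37.7% and 35.6% had UMIs of exactly 1 factor, and 0 had UMIs of all 6. For 2 of the 15 pairs, barcodes with a UMI of the first gene held the second more often, without interval overlap in either library. The comparison is with barcodes that had no UMI of the first gene. Pairs of other genes were not counted in this way, so whether 2 of 15 is more than usual is not known. Among Prrx1-positive barcodes of WT, 19.8% (17.6 to 22.3) had a Prrx2 UMI, against 13.0% (11.9 to 14.2) of Prrx1-negative ones, and in KO the shares were 19.2% (17.1 to 21.4) and 10.2% (9.17 to 11.2). Among Snai2-positive barcodes, 24.1% (20.7 to 27.8) of WT and 21.9% (18.6 to 25.5) of KO had a Zeb2 UMI, against 18.2% (17.0 to 19.4) and 15.9% (14.8 to 17.0) of the others.

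The pairs were also examined within classes. Within other mesenchyme-like barcodes, the Prrx pair kept 22.6% (19.4 to 26.1) against 15.9% (14.1 to 17.96) in WT and 21.3% (18.6 to 24.1) against 12.4% (10.7 to 14.2) in KO. In sclerotome-like barcodes it had 16.8% (10.7 to 24.5) against 8.75% (6.82 to 11.01) in WT, where the intervals overlapped, and 16.1% (11.65 to 21.4) against 8.12% (6.63 to 9.81) in KO, where they did not. In smooth muscle-like barcodes the intervals overlapped in both libraries, with 15.2% (10.1 to 21.7) against 14.3% (10.3 to 19.15) in WT and 18.7% (11.8 to 27.4) against 8.33% (4.93 to 13.01) in KO. Within other mesenchyme-like barcodes, Snai2 and Zeb2 had 21.1% (16.3 to 26.5) against 14.7% (13.1 to 16.5) in WT and 19.7% (15.2 to 24.7) against 15.2% (13.7 to 16.8) in KO. Within smooth muscle-like barcodes they had 34.3% (23.5 to 46.3) against 38.3% (33.2 to 43.6) in WT and 26.4% (15.3 to 40.3) against 34.9% (29.1 to 41.0) in KO. All of these Snai2 and Zeb2 intervals overlapped. Prrx1 was found in 19.3% (15.7 to 23.3) of Zeb1-positive barcodes of WT against 25.6% (24.3 to 27.0) of the others, and in KO in 29.0% (25.0 to 33.4) against 27.6% (26.3 to 29.0), where the intervals overlapped. Without thinning, intervals separated for 15 of 15 pairs in both libraries, where the depth of the barcodes was not made equal.

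**Figure D4:**
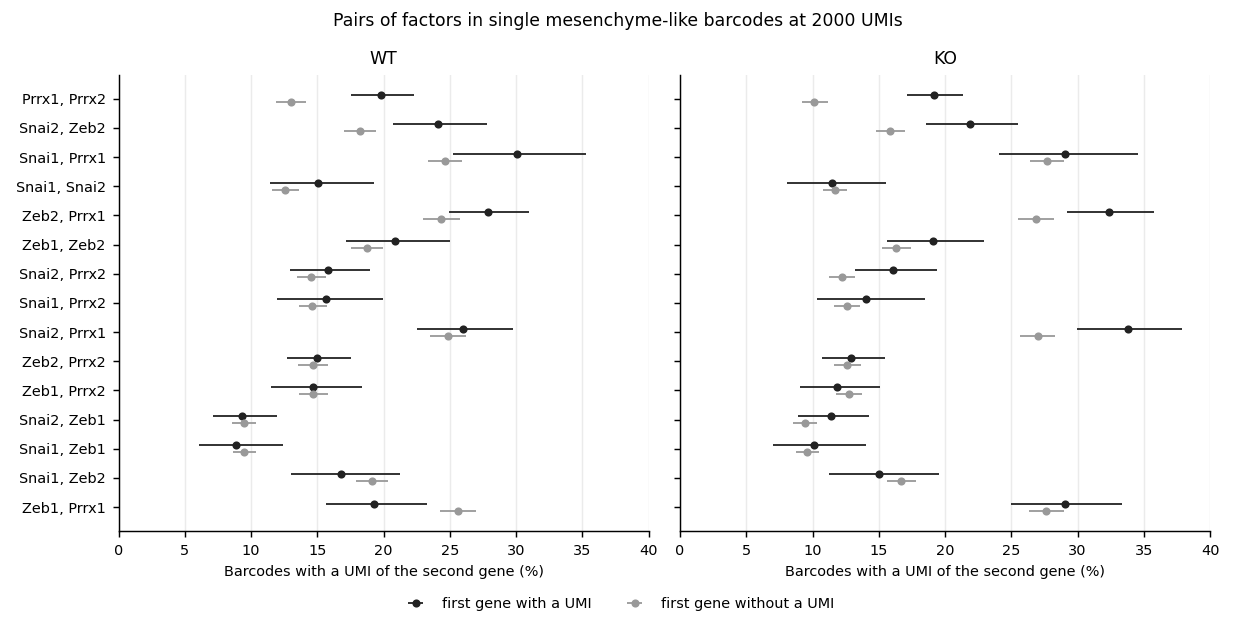
Share of mesenchyme-like barcodes with a UMI of the second gene of each pair (horizontal axis, percent), among barcodes with (dark) and without (light) a UMI of the first, after thinning to 2000 UMIs, with exact 95% binomial intervals. The pairs are ordered by the WT ratio. The dark and light intervals of Prrx1 and Prrx2 (19.8% and 13.0% in WT) and of Snai2 and Zeb2 (24.1% and 18.2%) do not overlap in either library.

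Genes that Snail and Zeb factors are known to repress, or that mark epithelium, were measured next. Of 10 epithelial genes, 5 were under 1 CPM in all mesenchyme-like barcodes of WT, and the same number in KO. The others ranged in WT from 12.35 CPM for Krt19 to 57.7 CPM for Krt8. Against all mesenchyme-like barcodes together, 10 of 10 were higher in the epithelium-like class in each library. In WT, however, the splanchnic-like class exceeded the epithelium-like class for Krt8 (283 against 175 CPM), Dsp (66.6 against 35.9 CPM) and Krt19 (48.7 against 45.0 CPM). In KO the splanchnic-like class did so for Cdh3, at 58.5 against 42.1 CPM. Cdh1 had 4 UMIs (0.0438 CPM) in WT and 8 (0.0881 CPM) in KO mesenchyme-like barcodes, against 31.3 and 10.97 CPM in the 35 and 36 epithelium-like barcodes. Crb3, whose promoter holds the 4 boxes shown above, had 4 and 2 UMIs in mesenchyme and 31.3 and 15.2 CPM in epithelium. UMIs of the factors were also counted in epithelium-like barcodes, with 56.1 CPM (46.1 to 67.5) of Snai2 in WT against 39.6 CPM (30.6 to 50.5) in KO. Zeb2 had 84.4 CPM (72.0 to 98.2) and 53.0 CPM (42.5 to 65.4) there. By thinned shares, however, neither gene was above erythroid-like barcodes in this class, in either library. In the coelomic epithelium-like class, by the same shares, Snai2 was above erythroid-like barcodes in both libraries and Zeb2 in neither. Free RNA held 43.9 CPM of Snai2 in WT and 46.65 CPM in KO, and 93 and 111.5 CPM of Zeb2. Whether epithelium-like cells express these factors was not tested.

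The keratins behaved otherwise. Of the 5 epithelial genes with at least 100 UMIs in mesenchyme, 4 were lower in KO by a log2 ratio of 0.5 or more and 0 were higher, where 6.13% of all genes were lower by this much and 5.71% higher. The median log2 ratio of these 5 was -1.75, against 0.02 over all genes. This list, like the others below, was chosen with earlier results of these data known. Such counts and medians are therefore not independent of those results. Krt8 had 57.7 CPM in WT against 9.93 CPM in KO, a log2 ratio of -2.54 (-2.64 to -2.44). Krt18, its partner in simple epithelia, had 36.2 CPM and 20.65 CPM, a log2 ratio of -0.81 (-0.89 to -0.73). Krt19 had a log2 ratio of -1.75 (-1.93 to -1.58) and Dsp, which encodes desmoplakin, one of -1.81 (-1.98 to -1.65). The splanchnic-like class of WT had 283 CPM of Krt8, 119 CPM of Krt18, 48.7 CPM of Krt19 and 66.6 CPM of Dsp. Without this class the log2 ratio of Krt8 was -2.34 (-2.46 to -2.21) and that of Krt18 was -0.71 (-0.80 to -0.61). Krt19 was then at -1.51 (-1.72 to -1.31) and Dsp at -1.63 (-1.83 to -1.43). Cdh3 differed little, with 27.3 CPM in WT against 28.2 CPM in KO.

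Among 9 epithelial regulators, 6 in WT and 7 in KO were under 1 CPM in mesenchyme. Esrp1, a splicing factor of epithelia, had 3 and 4 UMIs, and Ovol1 had 0 in both libraries. Grhl3 was at 2.67 and 0.617 CPM, a log2 ratio of -2.12 (-2.56 to -1.69). Of the 4 genes with at least 100 UMIs over both libraries, 2 were lower past 0.5, where 6.13% of all genes were. These were Grhl3, with 244 UMIs in WT and 56 in KO, and Grhl1, with 90 and 44. They passed the minimum mostly through their WT UMIs, so this count is not evidence of a direction. All 10 listed mesenchymal effectors were higher in all mesenchyme-like barcodes together than in the 35 and 36 epithelium-like barcodes. The share of all genes with such a direction was not counted, here or for the epithelial genes. Vim and Itga5 were highest in endothelial-like barcodes of both libraries, with 2435 and 2516 CPM of Vim. Cdh2 was highest in Schwann and neural crest-like barcodes, at 203 and 220 CPM. The other listed effectors were highest in a mesenchyme-like class. None of these 10 was past 0.5 between libraries, and 7 were lower in KO, with a median log2 ratio of -0.17, where 46.9% of the 13623 genes were lower. Vim, encoding vimentin, had 792 and 633 CPM, Fn1, encoding fibronectin, 359.7 and 291 CPM, and Cdh2, encoding N-cadherin, 115 and 99.1 CPM.

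**Figure D5:**
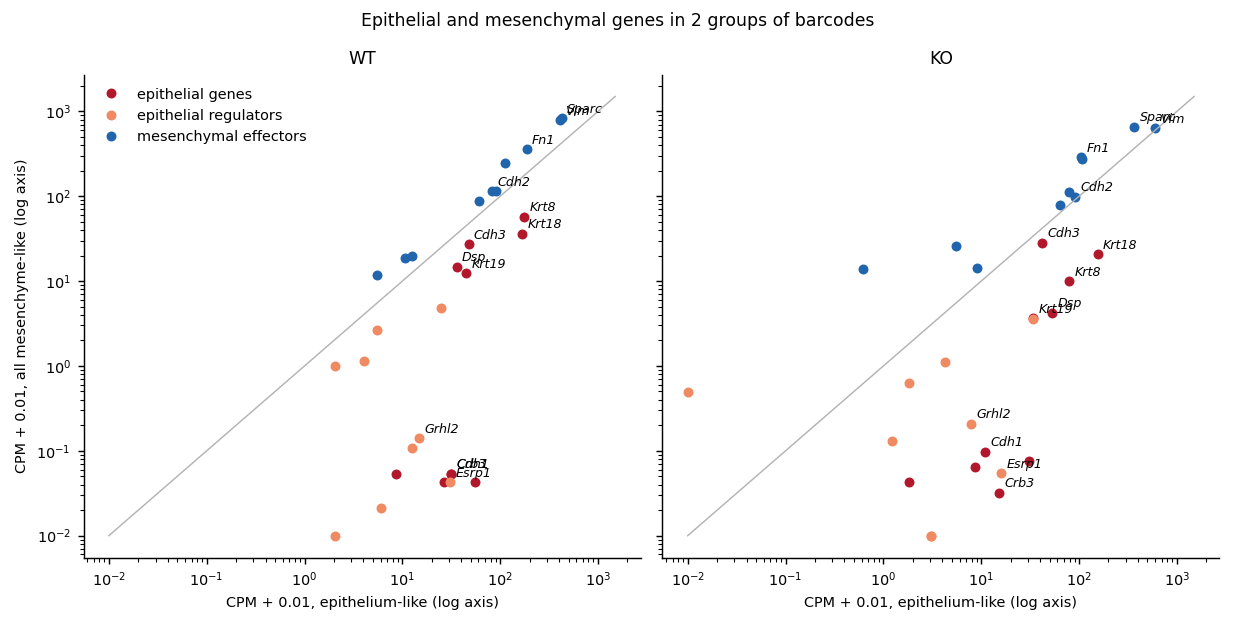
CPM plus 0.01 of epithelial genes (red), epithelial regulators (orange) and mesenchymal effectors (blue) in epithelium-like (horizontal) and all mesenchyme-like barcodes (vertical), both on log axes, with equal levels on the grey line. Cdh1, Crb3 and Esrp1 lie under 0.1 CPM in mesenchyme in both libraries, and Krt8 is at 57.7 CPM in the WT panel and at 9.93 CPM in the KO panel.

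The partner factors of the basic helix-loop-helix class, which bind the same boxes, were all present. Twist1 had 326.5 CPM in WT mesenchyme-like barcodes and 319 CPM in KO, and Twist2 had 58.2 and 55.6 CPM. Of the 5 listed, 0 were past 0.5, the extremes being Tcf4 with a log2 ratio of 0.35 (0.33 to 0.38) and Tcf3 with -0.28 (-0.31 to -0.24). Of 9 cofactors, such as the corepressors Ctbp1 and Ctbp2, the deacetylases Hdac1 and Hdac2 and the SNAI1-degrading Fbxl14, 0 were past 0.5. The median log2 ratio was -0.03 for the partner factors and -0.05 for the cofactors. The paired-type relatives of Prrx differed more, with 5 of 7 measured genes lower past 0.5 and 1 higher, and a median of -0.90. Of all genes, 6.13% were lower and 5.71% higher by this much, and this list too was chosen with earlier results known. Pitx1 had 80.65 and 31.85 CPM, a log2 ratio of -1.34 (-1.40 to -1.28), Alx1 18.7 and 10.1 CPM (-0.90, -1.01 to -0.78), and Alx4 11.6 and 5.98 CPM (-0.96, -1.11 to -0.81). Shox2, at 2.78 and 4.89 CPM, was the gene that was higher. The splanchnic-like class of WT had 238 CPM of Pitx1, and without this class its ratio was -1.18 (-1.24 to -1.11).

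Last, the profile of each factor over the 15 classes was compared with those of other genes, by Pearson's r of log2(CPM + 1) in WT over 12430 genes with at least 200 UMIs that were neither factors nor gate markers. The classes share a library and depth, so r is a description. Cdh11, encoding a mesenchymal cadherin, was nearest to Snai2 (r = 0.98 in WT and 0.90 in KO), followed by Airn (0.97 and 0.85) and Igf2r (0.97 and 0.90), which lie at the same imprinted locus. Prrx2 was nearest to the genes of secreted and matrix proteins Sfrp2 (0.98 and 0.84), Mfap4 (0.98 and 0.87) and Pcolce (0.97 and 0.82). Prrx1 was nearest to Dact1 (0.96 and 0.86), the overlapping Gm26523 (0.95 and 0.93) and S1pr3 (0.95 and 0.84). Snai1 was nearest to Chrd (0.95 and 0.74), Npas3 (0.94 and 0.82) and Mdfi (0.93 and 0.80). Zeb1 was nearest to Stk25 (0.92 and 0.92), 4921524J17Rik (0.92 and 0.92) and Svil (0.91 and 0.84), and Rassf4 (0.78 and 0.78) and Camk2d (0.77 and 0.67) were among the 3 nearest to Zeb2. Only Gm26523 and Rassf4 were also among the 3 nearest genes in KO.

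Between the factors themselves, Prrx1 with Prrx2 (0.92 in WT and 0.88 in KO) and Snai2 with Prrx2 (0.94 and 0.80) had the most similar profiles, and Zeb2 was unlike all others (from -0.06 to 0.10 in WT and from 0.03 to 0.15 in KO). The r between the WT and KO profiles of a factor ranged from 0.81 for Prrx1 to 0.97 for Zeb1, where the median of 12241 genes was 0.90, and Zeb1 alone of the 6 was above that median.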

How the data were processed

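Cells of the E11 AGM of 1 WT and 1 KO library were captured with 10x 3′ chemistry. Per the labels and the submitters' processing notes, Cell Ranger 3.1.0 and the mouse build mm10 (GRCm38) were used. The matrices deposited by the authors hold UMI counts, whole numbers per gene and barcode, for all barcodes without a cell filter. The deposited counts were used as they are.

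Barcodes with at least 2000 UMIs and under 10% mitochondrial UMIs were kept. A class required UMIs of at least 50% of its listed markers, or at least 2 UMIs of Tcf21, and where several passed, a fixed order of classes decided. Barcodes passing 2 lineages were set apart as likely doublets (43 in WT and 32 in KO), and simulated doublet scores, which left out 7% of barcodes, were an alternative. The gate rule was set after the data were seen, and the factors and gene lists were chosen with earlier results of these data known. Counts were summed per class and library and given as CPM of all UMIs with exact Poisson intervals. Shares had exact Clopper-Pearson intervals, and ratios had exact conditional binomial intervals, all at 95%. With 1 library per genotype no test was made. Genes were counted past a fold at a log2 ratio of 0.5 with at least 100 UMIs. For equal depth, barcodes were thinned to 2000 UMIs. Free RNA was taken from barcodes with at most 100 UMIs. Named were the 6 factors, the 3 genes nearest to each by class profile in WT, genes of the lists, and Pdgfrb, Xist and Y-linked genes as checks of the labels. Snai3, Zeb2os and the genes that lead classes were named outside this rule, after their values were seen. Some genes that this rule names are not reported here.

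The ratio script was tested on simulated data for all mesenchyme-like barcodes, KO over WT, with 12601 genes. All 200 changed genes, whose set changes were larger than any pooled ratio of the factors, were past the fold. The counts held Poisson error only, and 95.1% of intervals held the simulated ratio. Variation between cells or libraries was not simulated. Python 3.11.15, numpy 2.4.6, scipy 1.17.1, pandas 2.3.3, scikit-learn 1.9.0 and matplotlib 3.10.9 were used. Gene positions are those of the GRCm38 annotation, and promoters are from RefSeq.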

Additional observations from a re-analysis of the deposited data

Results flagged for a closer look

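Some factors differed between the libraries in opposite directions in different classes, with counting intervals that excluded 0 on each side, and these differences between classes were not tested. The share of all genes that did the same was not counted, so this is not shown to be particular to the factors. The leading genes of a class also differed between libraries, as with Barx1 in the Tcf21-positive class of WT only. Snai1 had a log2 ratio of KO to WT of 0.21 in Tcf21-positive barcodes and -0.21 in other mesenchyme-like barcodes. Snai2 had 0.29 in Tcf21-positive and -0.24 in smooth muscle-like barcodes. Zeb2 had 0.40 in Tcf21-positive, 0.12 in other mesenchyme-like and -0.082 in smooth muscle-like barcodes.

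Prrx2 was higher in the barcodes that passed no gate than in any of the 15 classes. It was at 164.8 CPM (158 to 172) in the 1975 unassigned WT barcodes and at 147.9 CPM (142 to 154) in the 1960 unassigned KO barcodes, which no comparison above used.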

How the results depend on the processing

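No paired analysis was possible because each genotype had 1 library and the labels give no replicate numbers. The 6 pooled ratios of KO to WT were recomputed under 17 settings and the highest classes under 10. Leaving shared barcodes or globin UMIs out, counting unassigned barcodes as mesenchyme and leaving splanchnic-like barcodes out were chosen after seeing the data. Values that turned or moved beyond the counting interval follow, and beyond what each setting leaves out or reweights the cause was not tested. With the classes weighted to the WT mix, Snai2 was at 0.015 and Zeb2 at 0.13, both reversed, Zeb1 at 0.085 and Prrx1 at 0.25. Without barcodes holding a Pdgfrb UMI in both libraries, Snai2 (0.24), Zeb2 (0.29) and Prrx2 (0.051) reversed, Zeb1 was at 0.31 and Prrx1 at 0.58, and without those of KO alone Snai2 was at -0.16, Zeb2 at -0.34, Prrx1 at 0.15 and Prrx2 at -0.27. Without barcodes holding a Barx1, Tlx1 or Nkx2-5 UMI, Snai1 was at -0.0885, Prrx1 at 0.19 and Prrx2 at -0.24. With 1 more marker per gate, Zeb2 was at -0.078 and Prrx1 at 0.36. Thinned to 2000 UMIs, Snai1 was at -0.25 and Snai2 at -0.14. The mean of per-barcode CPM gave -0.10 for Snai1, and leaving out barcodes above the 95th percentile of UMIs gave -0.16 for Zeb2. Prrx1 was higher in KO under all 17 settings.

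The highest class was the same in 57 of 60 recomputed cases in WT and 54 of 60 in KO. In WT, Prrx1 was highest in smooth muscle-like barcodes with 1 more marker per gate or after thinning, and Zeb2 in Schwann and neural crest-like barcodes after thinning. In KO, Snai1 was highest in sclerotome-like barcodes with 1 more marker per gate, Zeb2 in macrophage-like barcodes without the highest doublet scores, and Snai2 in smooth muscle-like barcodes under these settings, after thinning and by the mean of per-barcode CPM. The number of factors with the same highest class in both libraries was 3, and 5 without the highest doublet scores. Without thinning, 15 pairs in place of 2 had the second gene more often in barcodes with a UMI of the first. Of the 18 nearest genes, 2 were named again from the KO classes. Small classes limit the depth, with 30 and 32 other white blood-like and 35 and 36 epithelium-like barcodes.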
